A study of Mus musculus with 42 samples.

Results

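The fatty acid oxidation module holds 38 genes, chosen as the rows of the deposited count table whose symbol is on a list of mitochondrial and peroxisomal enzymes and carriers. All 38 were found among the 55011 genes in the table. By the known site of the proteins, 20 were counted as mitochondrial, 15 as peroxisomal, 2 as present in both organelles (Ech1 and Eci2) and 1 as cytosolic (Acot1). Their levels were described across the 15 sample groups of the series, and the mitochondrial members were set beside the peroxisomal members throughout.

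RNA was sequenced in 42 mouse libraries from visceral adipose tissue (VAT) or from cells grown out of it. Stromal cells of the populations named VmSC4 and VmSC5 in the labels, all of Pparg-Tdt genotype, were taken after 8 days of adipogenic culture (n = 3 each), after transfer into Kaeda recipient mice (VmSC4-derived VmSC5, n = 3; VmSC5-derived VmSC5, n = 2; VmSC4-derived VmSC4, n = 3) and fresh from the sorter (n = 3 each). Floating cells labelled adipocyte came from Pparg-Tdt:Foxp3-DTR+ mice, in which the toxin receptor is expressed from Foxp3 so that diphtheria toxin depletes regulatory T (Treg) cells, and from Pparg-Tdt:Foxp3-DTR- mice, with the toxin given to both (n = 2 each). VmSC5 in adipogenic medium were grown with or without Treg, which the series text describes as conditioned medium of VAT Tregs, and with 10 ng/mL of the cytokine oncostatin M (OSM) or with phosphate-buffered saline (PBS) (n = 3 each, all Pparg-Tdt). VAT Treg cells were labelled Osm KO (OSMf/f) or Osm WT (OSM+/+) (n = 3 each), and the labels do not give the Cre line. The labels do not say that replicates of a group came from different mice or wells, and p-values here therefore reflect variation among libraries that may be of technical origin.

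As background, long-chain fatty acids enter mitochondria as carnitine esters: CPT1 in the outer membrane makes the ester, the carrier SLC25A20 moves it inward and CPT2 releases the acyl-CoA. Acyl-CoA dehydrogenases of different chain length, a hydratase, a hydroxyacyl-CoA dehydrogenase and a thiolase then shorten the chain in repeated rounds, and the electrons leave through the flavoprotein ETF and its dehydrogenase. Peroxisomes shorten very long and branched chains with a separate set of enzymes that begins with an acyl-CoA oxidase, and export shortened products as carnitine esters or, after cleavage by thioesterases, as free acids. Adipocytes gain mitochondria and peroxisomes as they differentiate, and many of these genes are known targets of the PPAR nuclear receptors.

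Total counts per library ran from 1072147 to 12514783, lowest in the OSM and PBS cultures and highest in the fresh cells. Levels are given as CPM, counts scaled to the library total, for the libraries in replicate order, and fold changes as log2 values ± SE from edgeR after TMM scaling, so that a fold change can differ from the ratio of CPM values. A gene was called at an adjusted p under 0.05 by the edgeR quasi-likelihood test, with Benjamini-Hochberg adjustment over all genes tested in that comparison. Where members at an unadjusted p under 0.05 are counted, the share of all genes at that threshold was not counted. Those counts therefore have no background beside them. DTR+ replicate 3 stood apart from the other floating-cell libraries: Pparg, the master regulator of adipocyte identity, was at 12.3 CPM there and at 191 to 242 CPM in the other 3, and 15351 genes were detected, against 17034 to 17903. Bulk RNA cannot tell fewer cells of a type from less RNA per cell.

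The module took its largest share of the counts in the adipogenic cultures. All 38 members together made up 2.12 to 2.30% of counts in VmSC5 cultures and 1.96 to 2.06% in VmSC4 cultures, against 0.254 to 0.284% in fresh VmSC5 and 0.264 to 0.297% in fresh VmSC4. Between these lay the floating cells, at 0.932 and 1.07% in DTR+ mice and 0.865 and 0.779% in DTR- mice, and the VmSC5 cultures, at 0.779 to 0.825% with Treg and 1.18 to 1.27% without. OSM cultures held 0.234 to 0.248%, inside the range of the fresh, transferred and Treg cells, and PBS cultures held 0.566 to 0.599%. The transferred cells ranged from 0.217% to 0.255%, and the Osm KO and WT Treg cells from 0.214% to 0.233%. Depth and preparation differed between these experiments, and the order across them was not tested.

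**Figure D1:**
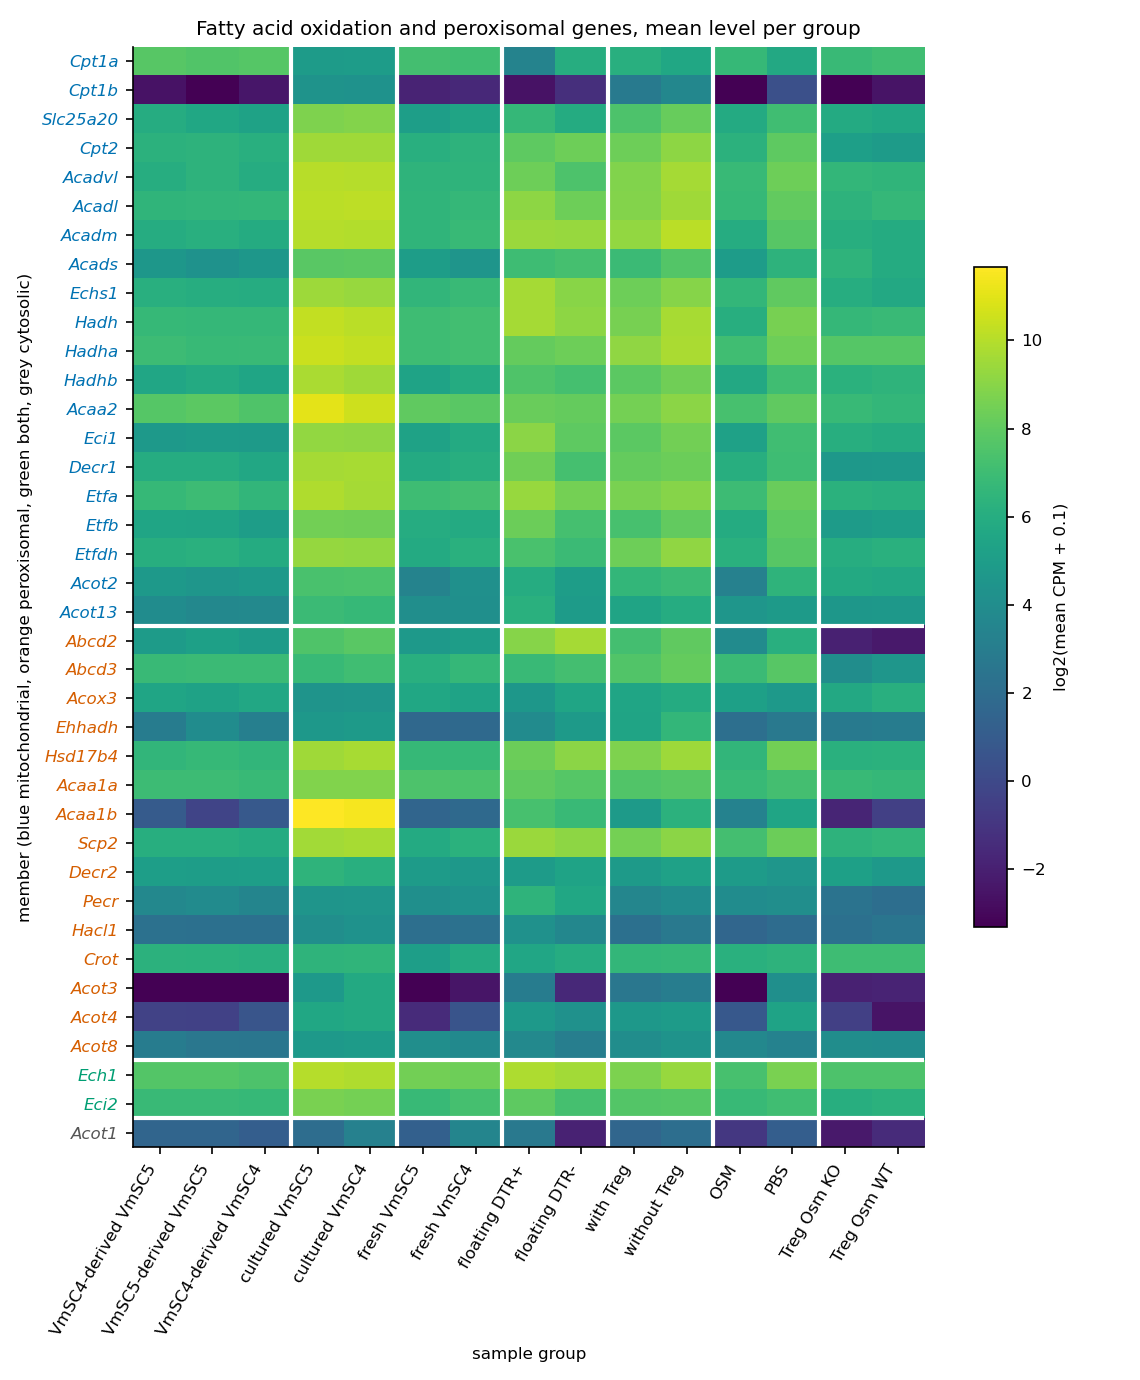
Mean level of each of the 38 members (vertical, grouped by compartment) in each of the 15 groups (horizontal), as log2 of the mean CPM plus 0.1, with yellow for high and dark blue for low levels. The columns of the 8-day cultures are the brightest for most members, and Cpt1b, Acaa1b, Acot3 and Acot4 contrast most between them and the fresh cells.

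Summed over members, the mitochondrial set reached 14134 to 15419.9 CPM in VmSC5 cultures and 12733 to 13525 CPM in VmSC4 cultures, against 1499 to 1682 CPM in fresh VmSC5 and 1569 to 1771 CPM in fresh VmSC4. The peroxisomal set reached 5739 to 6055 CPM in VmSC5 cultures and 5538 to 5835 CPM in VmSC4 cultures, against 558 to 641 CPM in fresh VmSC5 and 651 to 672 CPM in fresh VmSC4. Per 100 mitochondrial CPM, peroxisomal members held 39.3 to 40.8 CPM in VmSC5 cultures and 41.7 to 43.5 in VmSC4 cultures, against 36.6 to 40.1 in fresh VmSC5 and 37.4 to 41.5 in fresh VmSC4. The closeness of these proportions rests on Acaa1b, which alone held 2537 to 3452 CPM in the 8-day cultures, against 1.85 to 4.56 CPM in the fresh cells. Without the most abundant member of each compartment, which is Acaa2 on the mitochondrial side and Acaa1b in culture or Acaa1a in fresh cells on the peroxisomal side, the proportion was 19.9 to 21.8 in VmSC5 cultures and 22.6 to 26.2 in VmSC4 cultures, against 29.5 to 33.6 in fresh VmSC5 and 31.2 to 35.9 in fresh VmSC4. Every cultured library then lay below every fresh library. In the other experiments, with all members, the proportion was 43.0, 46.3 and 47.6 with OSM, against 35.3, 36.0 and 36.4 with PBS, and 29.7, 29.4 and 28.9 with Treg, against 26.9, 26.6 and 28.4 without. In each of these pairs every treated library lay above every control library, also without the most abundant members, and this order was not given a test. Floating cells spread most, at 45.1 and 26.4 in DTR+ mice and 48.5 and 65.5 in DTR- mice, with the lowest value in DTR+ replicate 3.

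**Figure D2:**
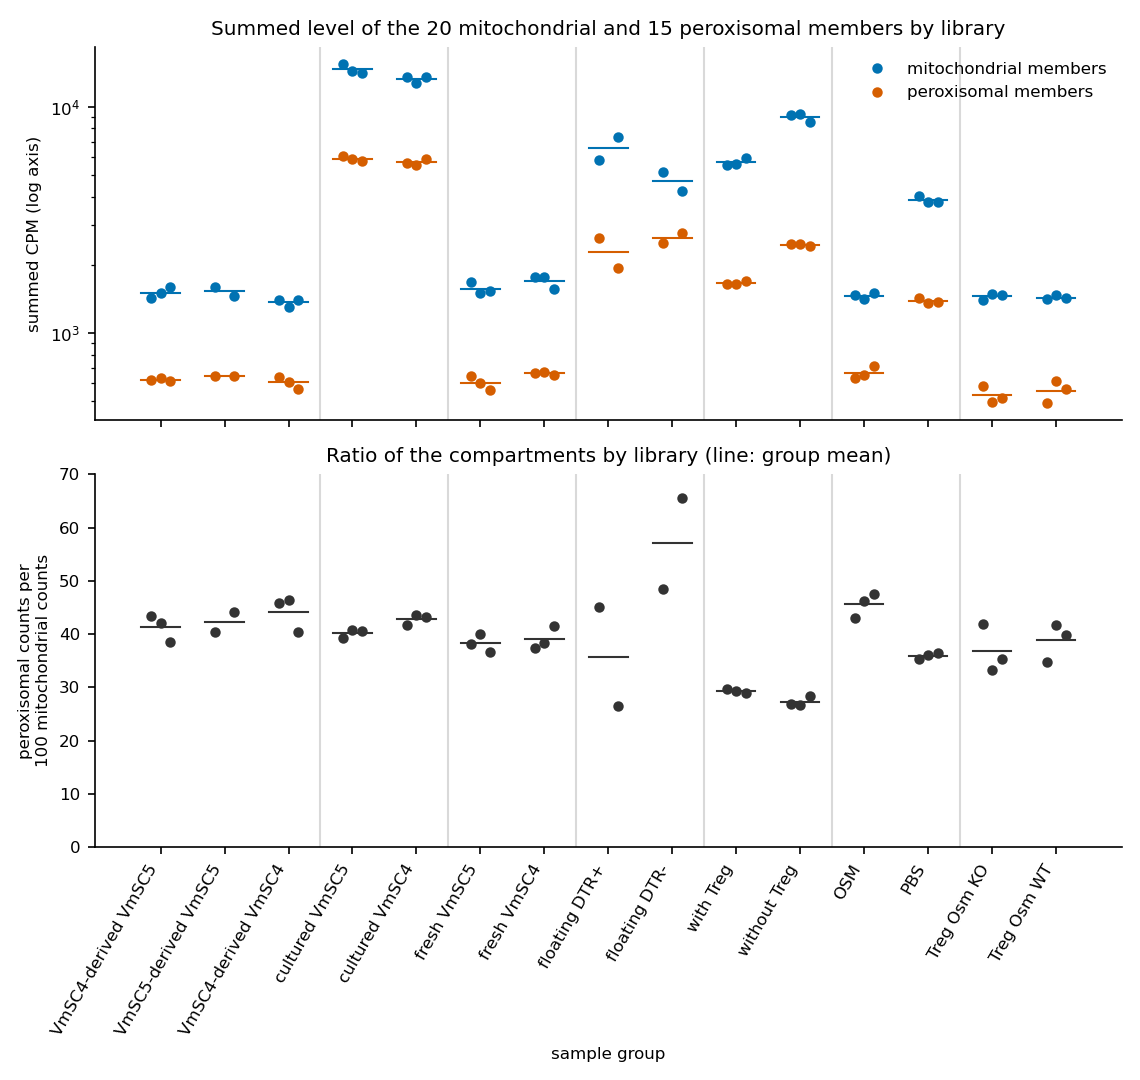
Summed CPM of the 20 mitochondrial and the 15 peroxisomal members in each library (upper panel, 1 point per library, log axis, line at the group mean), and peroxisomal counts per 100 mitochondrial counts in the same libraries (lower panel). Both sums stand highest in the 8-day cultures, the OSM libraries lie below all 3 PBS libraries in both sets, and the ratio is highest in DTR- floating cells.

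Per length, the leading members differed between the organelles. Acaa2, the mitochondrial thiolase that ends each round, was the highest mitochondrial member per kilobase of exon in the 8-day cultures and the fresh cells, at 1398 ± 137 CPM per kb in VmSC5 cultures and 964 ± 95.2 in VmSC4 cultures, against 172 ± 24.1 in fresh VmSC5 and 153 ± 21.7 in fresh VmSC4 (SD, n = 3 each). Among peroxisomal members, the thiolase Acaa1b led in culture at 1658 ± 94.7 CPM per kb in VmSC5 and 1434 ± 122 in VmSC4, whereas its near copy Acaa1a led in fresh cells at 41.2 ± 2.34 in VmSC5 and 39.4 ± 4.11 in VmSC4. Counts of this pair are uncertain, because their transcripts are 95.7% identical where aligned and 35.5% of 50-base stretches of Acaa1b also occur in Acaa1a. The same holds for Acot1 and Acot2, at 94.3% and 23.7%. The number of members above 10 CPM was 37 in each 8-day culture, 31 in fresh VmSC5 and 32 in fresh VmSC4, and 29 in each Treg genotype.

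The adipogenic cultures were compared with fresh cells of the same population to see how the module differs after 8 days of adipogenic culture. Culture, preparation and depth differ together here, so their effects cannot be told apart. Total counts were 1841664 to 2606360 in VmSC4 cultures, against 11186713 to 12514783 in fresh VmSC4. They were 1871258 to 2326279 in VmSC5 cultures, against 8527769 to 9709350 in fresh VmSC5. Of 38 members tested, 35 rose and 1 fell in VmSC4 cultures, beside a background of 70.4% of all 13221 genes tested (31.9% higher and 38.5% lower) called in either direction, and 36 rose and 2 fell in VmSC5 cultures, beside 71% of all 13221 genes tested (33.4% higher and 37.6% lower). The median log2 fold change of the members was 3.52 in VmSC4 and 3.37 in VmSC5, against -0.23 and -0.18 over all genes tested. Cpt1b, Acot3 and Acot4 passed the filter for low counts only through the cultured libraries, so only a rise could be called for them. They are included in these counts and medians. With library totals as the only scaling, an alternative chosen after the data were seen, the medians of all genes moved to -0.78 in VmSC4 and -0.61 in VmSC5. The counts were then 34 higher and 2 lower in each population. By site, 19 of 20 mitochondrial members rose in each population with medians of 3.71 and 3.86, and 14 of 15 peroxisomal members rose with lower medians of 2.62 and 2.39, in VmSC4 and VmSC5 in that order. The 35 members that rose in VmSC4 were all among the 36 that rose in VmSC5, and the 2 comparisons share no library. The share of all genes that rose in both was not counted.

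In the carnitine shuttle, the transcripts of the CPT1 isoforms moved in opposite directions. Cpt1a, the broadly expressed CPT1 isoform, was at 28.2, 35.3 and 29.8 CPM in VmSC4 cultures, against 152, 117 and 133 CPM in fresh VmSC4. In the other population it was at 28.8, 32.7 and 28.9 CPM in VmSC5 cultures, against 154, 139 and 138 CPM in fresh VmSC5. Every cultured library lay below every fresh library, and the log2 fold changes were -1.56 ± 0.15 in VmSC4 and -1.82 ± 0.15 in VmSC5 (edgeR adjusted p = 7.19e-10 and 3.48e-11). Cpt1b, the isoform known from muscle and brown fat, was at 14.7, 20.0 and 24.2 CPM in VmSC4 cultures, against 0.240, 0.268 and 0.171 CPM in fresh VmSC4. In the other population it was at 20.2, 19.4 and 21.9 CPM in VmSC5 cultures, against 0.309, 0 and 0.235 CPM in fresh VmSC5. Fresh libraries held few or no Cpt1b counts while every cultured library held at least 14.7 CPM, with log2 fold changes of 6.86 ± 0.44 and 7.10 ± 0.46 (edgeR adjusted p = 1.67e-13 and 3.05e-13). In CPM, Cpt1b ran at 0.592 to 0.759 times Cpt1a in VmSC5 cultures and 0.519 to 0.813 times in VmSC4 cultures, against at most 0.00230 times in fresh cells. The order of the isoforms per kilobase in culture depended on the length used: the ratio was 1.34 to 1.72 in VmSC5 cultures and 1.18 to 1.84 in VmSC4 cultures with exon-union lengths, and 0.883 to 1.13 in VmSC5 cultures and 0.774 to 1.21 in VmSC4 cultures with longest-transcript lengths. An annotated readthrough gene on the same strand, Gm44502, overlaps 2744 of the 3372 bases of Cpt1b exon and had 0 counts in all libraries. How reads lying in both genes were counted is not given. The 0 counts therefore do not exclude that Cpt1b reads were lost there, and its level relative to Cpt1a is uncertain. The carrier Slc25a20 was at 461, 469 and 467 CPM in VmSC4 cultures, against 48.3, 39.6 and 43.0 CPM in fresh VmSC4, and at 463, 421 and 435 CPM in VmSC5 cultures, against 31.6, 34.7 and 36.1 CPM in fresh VmSC5. Cpt2, which releases the acyl-CoA inside, was at 708, 746 and 740.0 CPM in VmSC4 cultures, against 83.5, 89.4 and 72.1 CPM in fresh VmSC4, and at 749, 742 and 691 CPM in VmSC5 cultures, against 66.0, 77.2 and 67.3 CPM in fresh VmSC5. Neither gene showed overlap between cultured and fresh libraries, and both rose, by 3.96 and 4.11 for Slc25a20 and 3.70 and 3.80 for Cpt2 on the log2 scale.

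**Figure D3:**
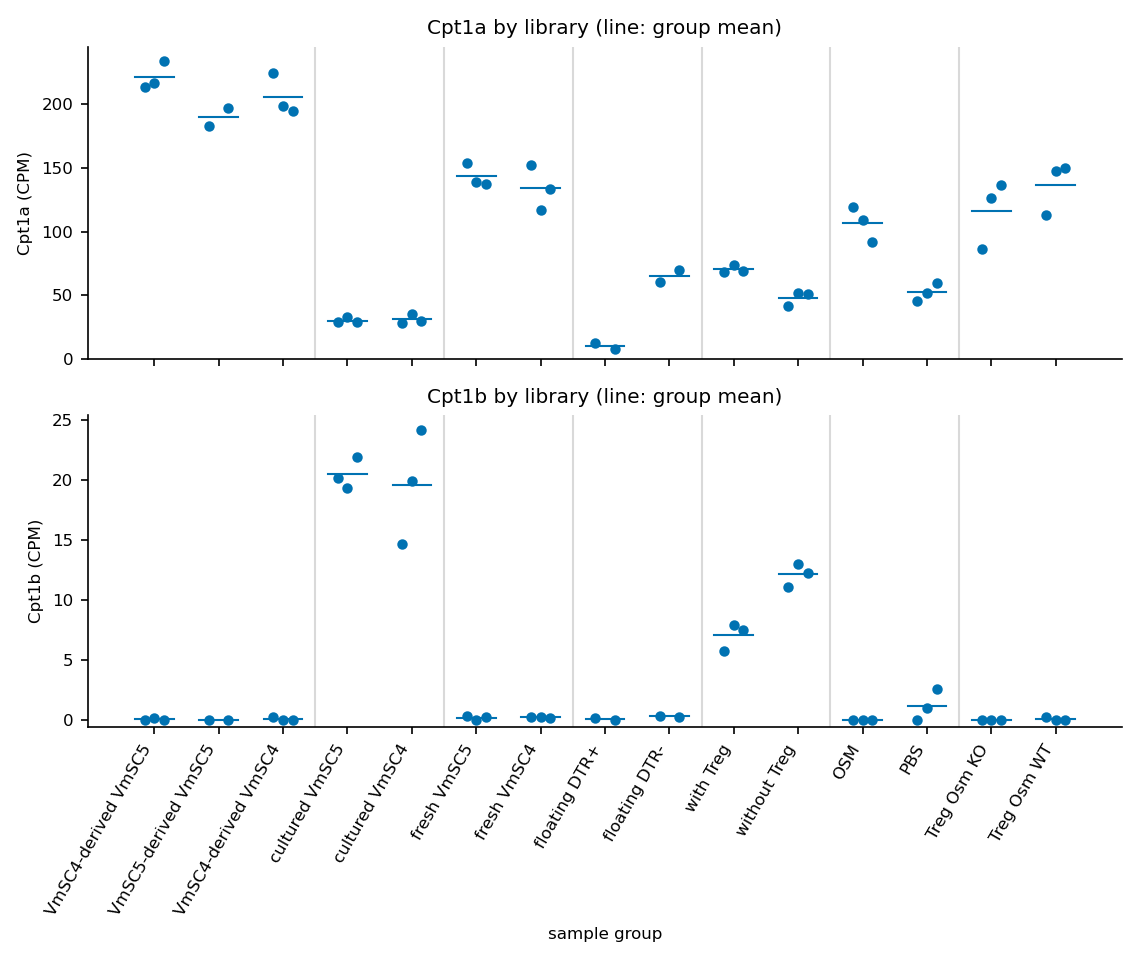
CPM of Cpt1a (upper panel) and Cpt1b (lower panel) in each library by group, with a line at the group mean and linear axes of different range. Cpt1a is lowest in DTR+ floating cells and next in the 8-day cultures, where Cpt1b is highest, at 14.7 CPM or more in every library.

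The enzymes of the mitochondrial cycle rose together. The 4 acyl-CoA dehydrogenases for very long (Acadvl), long (Acadl), medium (Acadm) and short chains (Acads) stood at log2 fold changes of 4.08, 4.04, 3.72 and 3.94 in VmSC4 and 4.06, 4.04, 3.99 and 3.25 in VmSC5. Acadvl was at 1044, 954 and 1012 CPM in VmSC4 cultures, against 91.3, 84.5 and 83.6 CPM in fresh VmSC4, and at 1122, 1063 and 1009 CPM in VmSC5 cultures, against 85.9, 84.3 and 86.8 CPM in fresh VmSC5. Acadl was at 1154, 1091 and 1166 CPM in VmSC4 cultures, against 107, 106 and 89.9 CPM in fresh VmSC4, and at 1140.5, 1128 and 1086 CPM in VmSC5 cultures, against 100.1, 94.5 and 78.8 CPM in fresh VmSC5. For both genes every cultured library lay far above every fresh library. Acadm was at 927, 983 and 1022 CPM in VmSC4 cultures, against 107, 109 and 108 CPM in fresh VmSC4, and at 1078, 1014 and 1035 CPM in VmSC5 cultures, against 103, 83.2 and 77.7 CPM in fresh VmSC5. Hadha, the alpha subunit of the trifunctional protein that handles long chains, was at 1249, 1179 and 1307 CPM in VmSC4 cultures, against 151, 139 and 126 CPM in fresh VmSC4, and at 1338, 1445 and 1450.4 CPM in VmSC5 cultures, against 144, 129 and 114 CPM in fresh VmSC5. Hadhb, its beta subunit, was at 776, 673 and 744 CPM in VmSC4 cultures, against 54.98, 59.0 and 62.5 CPM in fresh VmSC4, and at 1005, 822 and 827 CPM in VmSC5 cultures, against 48.4, 41.0 and 32.5 CPM in fresh VmSC5. Each of the 3 genes was far higher in every cultured library than in any fresh library, and Hadhb had the larger fold change of the 2 subunits, 4.17 ± 0.14 against 3.70 ± 0.12 in VmSC4 and 4.87 ± 0.15 against 3.88 ± 0.12 in VmSC5.

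Hadh, the hydroxyacyl-CoA dehydrogenase for medium and short chains, was at 1192, 1056 and 1120.0 CPM in VmSC4 cultures, against 137, 157 and 125 CPM in fresh VmSC4, and at 1283, 1226 and 1225 CPM in VmSC5 cultures, against 128, 121 and 132 CPM in fresh VmSC5. Eci1 and Decr1 are the auxiliary enzymes that let unsaturated chains pass. Eci1 was at 601, 576 and 581 CPM in VmSC4 cultures, against 63.8, 58.4 and 46.7 CPM in fresh VmSC4, and at 663, 600.0 and 566 CPM in VmSC5 cultures, against 44.0, 40.3 and 36.9 CPM in fresh VmSC5. Decr1 was at 822, 849 and 809 CPM in VmSC4 cultures, against 63.2, 76.3 and 60.1 CPM in fresh VmSC4, and at 872, 759 and 748 CPM in VmSC5 cultures, against 61.1, 56.1 and 54.8 CPM in fresh VmSC5. No cultured library overlapped a fresh one for any of the 3 genes, and edgeR adjusted p was at most 2.68e-19. The remaining mitochondrial members rose by 2.99 to 3.94 in VmSC4 and 2.92 to 4.39 in VmSC5 on the log2 scale. They are the hydratase Echs1, the thiolase Acaa2, the 2 ETF subunits Etfa and Etfb, the ETF dehydrogenase Etfdh, Acads and the thioesterases Acot2 and Acot13. The exons of Acadvl overlap those of Dvl2 on the opposite strand over 1151 bases, and the strand setting of the counting is not given in the sources used here.

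Peroxisomal members moved over a wider range than mitochondrial ones. Acaa1b was at 2939, 2537 and 2966 CPM in VmSC4 cultures, against 2.16, 4.56 and 3.42 CPM in fresh VmSC4, and at 3452, 3223 and 3084 CPM in VmSC5 cultures, against 1.85, 2.66 and 4.10 CPM in fresh VmSC5. It was nearly silent in fresh cells and the highest of all members per kilobase in culture, with log2 fold changes of 10.24 ± 0.24 and 10.58 ± 0.25 (edgeR adjusted p = 3.93e-19 and 3.57e-19). Its near copy Acaa1a was already present when fresh, at 489, 437 and 456 CPM in VmSC4 cultures, against 195, 164 and 163 CPM in fresh VmSC4, and at 482, 432 and 462 CPM in VmSC5 cultures, against 170.4, 185 and 190.4 CPM in fresh VmSC5, and rose by 1.95 and 1.76. Scp2, whose long product is the thiolase for branched chains, was at 801, 874 and 781 CPM in VmSC4 cultures, against 69.5, 85.0 and 73.3 CPM in fresh VmSC4, and at 792, 774 and 753 CPM in VmSC5 cultures, against 57.1, 57.7 and 55.7 CPM in fresh VmSC5. Hsd17b4, the bifunctional hydratase and dehydrogenase of the same route, was at 764, 900.1 and 812 CPM in VmSC4 cultures, against 109, 107 and 105 CPM in fresh VmSC4, and at 716, 774 and 751 CPM in VmSC5 cultures, against 133, 106 and 82.2 CPM in fresh VmSC5. Every cultured library exceeded every fresh library for these genes. Ehhadh, the other bifunctional enzyme, was at 29.9, 32.2 and 23.3 CPM in VmSC4 cultures, against 4.47, 3.75 and 2.14 CPM in fresh VmSC4, and at 28.4, 27.1 and 21.4 CPM in VmSC5 cultures, against 2.68, 4.04 and 3.05 CPM in fresh VmSC5. Abcd2, a transporter of very long chains, was at 193, 252 and 228 CPM in VmSC4 cultures, against 25.3, 34.4 and 35.9 CPM in fresh VmSC4, and at 175, 200.1 and 181 CPM in VmSC5 cultures, against 32.6, 30.1 and 15.8 CPM in fresh VmSC5. Both rose in both populations by 3.25 to 3.58 on the log2 scale.

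The thioesterases Acot3 and Acot4, which split peroxisomal acyl-CoA, were near 0 in fresh cells. Acot3 was at 38.01, 58.3 and 69.9 CPM in VmSC4 cultures, against 0.240, 0 and 0 CPM in fresh VmSC4, and at 27.1, 24.5 and 29.4 CPM in VmSC5 cultures, against 0, 0 and 0 CPM in fresh VmSC5. Over the groups this was 372 counts against 3 in VmSC4, a CPM ratio of 665 with an exact 95% counting interval of 226 to 3240.5. It was 175 counts against 0 in VmSC5, at least 247-fold higher when fresh VmSC5 are set at a floor of 3 counts over the group; intervals and floors cover counting error only. Acot4 was at 47.8, 57.2 and 62.4 CPM in VmSC4 cultures, against 2.08, 1.25 and 0.856 CPM in fresh VmSC4, and at 43.4, 49.9 and 51.8 CPM in VmSC5 cultures, against 0.206, 0.319 and 0.235 CPM in fresh VmSC5. Its log2 fold changes were 5.83 ± 0.25 in VmSC4 and 7.89 ± 0.33 in VmSC5, with no overlap of libraries.

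At the other end, Acox3, the acyl-CoA oxidase for branched chains, was at 19.0, 22.3 and 27.0 CPM in VmSC4 cultures, against 38.03, 44.0 and 41.5 CPM in fresh VmSC4, and at 20.2, 23.7 and 21.4 CPM in VmSC5 cultures, against 51.3, 48.9 and 43.2 CPM in fresh VmSC5. It fell in VmSC5 (-0.71 ± 0.18, edgeR adjusted p = 0.00104) and was not called in VmSC4 (-0.31 ± 0.18, adjusted p = 0.121), where it was lower by -0.85 with adjusted p = 0.000142 when library totals alone were the scaling. Pecr, a reductase for unsaturated chains, overlapped between cultured and fresh libraries in both populations, with log2 fold changes of 0.76 and 0.79 that were lost with library totals alone (0.22 and 0.36). Abcd3 (long-chain transport), Crot (export as carnitine esters), Acot8, Decr2 and Hacl1 (alpha-oxidation) rose by 0.94 to 2.62 in VmSC4 and 1.02 to 2.39 in VmSC5. Ech1 and Eci2, found in both organelles, rose by 2.07 and 1.84 in VmSC4 and by 1.95 and 2.27 in VmSC5. The cytosolic thioesterase Acot1 was at 9.77, 8.44 and 10.2 CPM in VmSC4 cultures, against 16.0, 8.49 and 9.59 CPM in fresh VmSC4, and at 2.58, 3.87 and 5.34 CPM in VmSC5 cultures, against 1.44, 2.45 and 2.93 CPM in fresh VmSC5. It overlapped between cultured and fresh libraries in each population, was not called in VmSC4 and was called higher in VmSC5 (1.19 ± 0.44, edgeR adjusted p = 0.0195), a call lost with library totals alone (0.77, adjusted p = 0.115) and without fresh VmSC5 replicate 1 or cultured VmSC5 replicate 2 or 3.

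Promoter sequence was compared with Acaa1b, Acot3 and Acot4 in view, which were low in fresh cells and high in culture. They were not alone at low levels: Cpt1b, for which no window was at hand, was at 0 to 0.309 CPM in fresh cells, and Ehhadh, at 2.14 to 4.47 CPM in fresh cells, and Acot1, at 1.44 to 2.93 CPM in fresh VmSC5, stood near the level of Acaa1b. RefSeq promoter windows of 300 bases, 250 before to 50 after the start (GRCm38.p6), were at hand for 32 of the 38 members in 34 windows. Windows of these 3 genes and of 2 others are shown 5′ to 3′ in the direction of transcription with each CG pair in capitals: Acaa1b (chr9:119157044-119157343, minus strand) and its copy Acaa1a (chr9:119341044-119341343, plus), Acot3 (the upstream of its 2 windows, chr12:84051894-84052193, plus), Acot4 (chr12:84038129-84038428, plus) and, as a CG-rich member, Hadha (chr5:30154931-30155230, minus).
Acaa1b: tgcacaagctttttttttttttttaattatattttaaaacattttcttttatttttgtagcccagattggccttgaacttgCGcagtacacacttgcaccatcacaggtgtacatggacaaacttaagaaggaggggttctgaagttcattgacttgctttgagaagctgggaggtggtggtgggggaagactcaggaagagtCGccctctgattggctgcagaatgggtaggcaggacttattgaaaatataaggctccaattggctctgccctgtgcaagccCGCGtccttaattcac
Acaa1a: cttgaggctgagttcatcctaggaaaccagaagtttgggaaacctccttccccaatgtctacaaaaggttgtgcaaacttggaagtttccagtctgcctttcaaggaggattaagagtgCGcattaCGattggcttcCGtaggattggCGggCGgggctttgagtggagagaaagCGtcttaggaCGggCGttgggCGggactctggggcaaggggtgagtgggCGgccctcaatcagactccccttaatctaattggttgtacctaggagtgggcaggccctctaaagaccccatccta
Acot3: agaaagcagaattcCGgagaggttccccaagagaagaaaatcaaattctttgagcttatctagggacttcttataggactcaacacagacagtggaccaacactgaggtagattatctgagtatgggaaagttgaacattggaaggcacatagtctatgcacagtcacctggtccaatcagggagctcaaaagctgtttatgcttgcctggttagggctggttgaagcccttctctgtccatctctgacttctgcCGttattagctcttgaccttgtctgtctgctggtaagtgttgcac
Acot4: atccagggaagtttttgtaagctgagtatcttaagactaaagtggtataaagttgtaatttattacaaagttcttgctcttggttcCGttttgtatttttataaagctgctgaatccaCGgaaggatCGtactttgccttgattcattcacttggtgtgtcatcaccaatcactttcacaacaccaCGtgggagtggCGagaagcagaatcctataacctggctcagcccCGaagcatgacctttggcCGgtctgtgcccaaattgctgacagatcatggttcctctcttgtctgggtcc
Hadha: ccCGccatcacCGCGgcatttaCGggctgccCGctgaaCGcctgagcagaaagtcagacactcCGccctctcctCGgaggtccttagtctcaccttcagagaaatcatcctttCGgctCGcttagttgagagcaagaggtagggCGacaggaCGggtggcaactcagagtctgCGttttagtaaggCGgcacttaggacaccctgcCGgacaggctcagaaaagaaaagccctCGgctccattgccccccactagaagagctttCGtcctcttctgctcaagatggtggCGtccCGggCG
Acaa1b held 4 CG pairs, Acot3 held 2 and Acot4 held 7, whereas the median was 17 over the 32 members and 7 over all 32851 mouse promoters of this length. No other member with a window had 7 or fewer CG pairs, with 14 in Ehhadh and 9 in Acot1, and the GC content of these 3 windows, 43.7% to 45.7%, lay below the 50.7% or more of the other members with windows. Of all promoters, 38% held 4 or fewer CG pairs and 31.4% held 17 or more.

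Motifs were searched on both strands of the same windows. A PPAR-type direct repeat, AGGNCA followed after 1 base by AGGNCA, was in no member window, and in 0.381% of all promoters. The single-site form TNAAGGTCA, whose end can overlap a copy of that repeat, was also in no member window, and in 1.28% of all promoters. The CCAAT box (CCAAT) was in the windows of 17 of 32 members, against 37.4% of all promoters. The STAT-type palindrome TTCNNNGAA was in those of Cpt2, Hadha and Hadhb, against 8.3% of all promoters. Hadha and Hadhb lie head to head, 86 bases apart in the gene annotation. Their windows, set on RefSeq starts, overlap, and the match in Hadha is the same stretch as that in Hadhb. A match describes letters in these windows and not a bound site.

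Markers and partner genes moved with the module in culture. All 7 adipocyte markers rose in both populations, and their sum was 38410.5 to 39605 CPM in VmSC5 cultures and 38914 to 41592 CPM in VmSC4 cultures, against 1979 to 2059.7 and 1326 to 1737 CPM in the fresh cells. All 4 stromal markers fell, with sums of 771 to 851 and 606 to 739 CPM in the cultures, against 28270.0 to 31818 and 28518 to 37631 CPM in the fresh cells. Counts from mitochondrially encoded genes made up 6.31 to 7.26% and 6.05 to 6.81% in the cultures, against 0.0722 to 0.167% and 0.304 to 0.423% in the fresh cells. The part of these shifts in the module's result was not tested. Brown adipocyte markers summed to 487 to 555 CPM in VmSC5 cultures and 162 to 337 CPM in VmSC4 cultures, against 0 to 0.235 and 4.19 to 6.63 CPM in the fresh cells, beside the Cpt1b values above. The 2 did not go together everywhere: in VmSC5 cultures without Treg these markers summed to 0.174 to 0.613 CPM, with Cpt1b at 11.1 to 13.0 CPM. Of 13 regulators, 9 rose and 1 fell in each population: Pparg rose by 3.20 and 3.31, Ppara by 3.55 and 3.17, the coactivator Ppargc1b by 6.24 and 4.35 and Acacb, whose product malonyl-CoA inhibits CPT1, by 3.65 and 3.55. Of 23 tested enzymes of fatty acid activation and related oxidation, 19 rose and 1 fell in VmSC4 and 20 rose and 2 fell in VmSC5. Catalase (Cat), which removes the hydrogen peroxide made in peroxisomes, rose by 3.93 and 4.16, and the acyl-CoA synthetase Acsl1 by 7.64 and 7.33. Of 16 peroxins, the factors that build peroxisomes, 12 rose in VmSC4 and 14 in VmSC5 with none lower, among them Pex16 by 4.71 and 4.54 and Pex13 by 3.74 and 4.56. Of 5 ketone body enzymes 4 rose and 1 fell in both populations.

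Between the 2 populations the cultured module differed little. Of 38 members 0 were called between VmSC5 and VmSC4 cultures by edgeR, with 4 at an unadjusted p under 0.05 and 1 called by DESeq2 (Acot3), beside 0.34% of all 13221 genes tested (0.129% higher and 0.212% lower). Acaa2 was at 2353, 2051 and 1953 CPM in VmSC5 cultures, against 1534, 1296 and 1556 CPM in VmSC4 cultures (0.51 ± 0.13, edgeR adjusted p = 0.0963). Acot3 was at 27.1, 24.5 and 29.4 CPM in VmSC5 cultures, against 38.01, 58.3 and 69.9 CPM in VmSC4 cultures (-1.08 ± 0.26, edgeR adjusted p = 0.0874). For both genes the 2 groups did not overlap, and both were called by edgeR when only the 2 groups entered the fit. The change in culture itself was tested as a difference of responses, VmSC5 minus VmSC4, and called 2 members higher and 1 lower, beside 2.87% of all 13221 genes tested (1.85% higher and 1.01% lower). The rise of Acot4 was larger in VmSC5 by 2.06 ± 0.51 (edgeR adjusted p = 0.0252) and that of Hadhb by 0.70 ± 0.18 (0.035), while that of Acads was smaller (-0.69 ± 0.18, adjusted p = 0.0391). Leaving out 1 library at a time gave 0 to 3 calls, with 0 without fresh VmSC5 replicate 2, without cultured VmSC4 replicate 1 or 2 and without cultured VmSC5 replicate 3, and 1 without fresh VmSC5 replicate 3, cultured VmSC4 replicate 3 or cultured VmSC5 replicate 1 or 2. None of the 3 was called between the cultured populations: Acads was at 226, 239 and 219 CPM in VmSC5 cultures, against 232, 244 and 234 CPM in VmSC4 cultures. Acot4 was at 43.4, 49.9 and 51.8 CPM in VmSC5 cultures, against 47.8, 57.2 and 62.4 CPM in VmSC4 cultures. Its larger rise in VmSC5 rests on the fresh level, with 2, 3 and 2 counts in fresh VmSC5, against 26, 14 and 10 in fresh VmSC4.

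Fresh VmSC5 and VmSC4 cells showed 1 member higher and 5 lower in VmSC5 of 35 tested, beside 18.4% of all 13947 genes tested (7.41% higher and 11% lower). The share of members called, 17.1%, was close to that background, so the calls below describe single genes and not the module. Acads was at 30.8, 34.3 and 31.3 CPM in fresh VmSC5, against 22.9, 18.3 and 25.9 CPM in fresh VmSC4 (0.61 ± 0.18, edgeR adjusted p = 0.0168). Acot1 was at 1.44, 2.45 and 2.93 CPM in fresh VmSC5, against 16.0, 8.49 and 9.59 CPM in fresh VmSC4 (-2.23 ± 0.38, edgeR adjusted p = 0.000203). Neither gene overlapped between the populations, and the Acads call was lost without replicate 2 of either population. Crot was at 35.8, 31.0 and 34.0 CPM in fresh VmSC5, against 44.6, 68.2 and 59.7 CPM in fresh VmSC4, and Abcd3 at 78.7, 69.5 and 65.7 CPM in fresh VmSC5, against 107, 101 and 101 CPM in fresh VmSC4. Again the populations did not overlap. Hadhb and Acot2 were the other members called lower, at log2 fold changes of -0.45 and -0.73, and both calls were lost when only these 2 groups entered the fit. Acot4 was not tested at these counts, with 0.206, 0.319 and 0.235 CPM in fresh VmSC5, against 2.08, 1.25 and 0.856 CPM in fresh VmSC4. The median over members was -0.12, against -0.02 over all genes. In fresh VmSC5, 2 of 3 tested endothelial and 2 of 3 tested macrophage markers were also called lower, and mitochondrially encoded genes took 0.0722 to 0.167% of counts, against 0.304 to 0.423% in fresh VmSC4; their part was not tested.

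Transfer into a recipient was followed by calls for 17 of 35 members in each population. Of 35 members tested, 3 rose and 14 fell in VmSC4-derived VmSC4 against fresh VmSC4, beside 46.1% of all 13947 genes tested (21.4% higher and 24.7% lower), and 7 rose and 10 fell in VmSC5-derived VmSC5 against fresh VmSC5, beside 46.4% of all 13947 genes tested (23.9% higher and 22.4% lower); the shares of members called were close to these backgrounds, and the member medians were -0.30 and -0.06, against -0.02 and 0.01 over all genes. With RLE scaling and with DESeq2 the VmSC4 split was 7 higher and 13 lower. Without VmSC5-derived VmSC5 replicate 1, when replicate 2 stood alone for its group and was assumed to vary like the others, 9 members were called in that population. Members lower after transfer in both populations were Acadm, Echs1, Hadh, Eci1 and Etfb of the mitochondrial cycle, the peroxisomal Acaa1a and Acot8, and Ech1. These 8 are 8 of the 14 lower members in VmSC4 and of the 10 in VmSC5, and the share of all genes lower in both was not counted. In VmSC5-derived VmSC5, the calls of Acadm, Eci1 and Hadh were lost without either transferred library and that of Etfb without replicate 2. Echs1, the short-chain hydratase, was at 61.5, 61.0 and 66.6 CPM in VmSC4-derived VmSC4, against 111, 133 and 101 CPM in fresh VmSC4, and at 66.0 and 65.4 CPM in VmSC5-derived VmSC5, against 93.9, 92.6 and 95.9 CPM in fresh VmSC5. Ech1 was at 194, 166 and 184 CPM in VmSC4-derived VmSC4, against 368, 328 and 282 CPM in fresh VmSC4, and at 204 and 193 CPM in VmSC5-derived VmSC5, against 387, 318 and 377 CPM in fresh VmSC5. Both genes were lower in every transferred library than in any fresh library, and Ech1 fell by 0.82 and 0.92 on the log2 scale (edgeR adjusted p = 5.06e-06 and 5.61e-06).

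Markers moved after transfer too. Mitochondrially encoded genes took 0.670 to 0.871% of counts in VmSC4-derived VmSC4, against 0.304 to 0.423% in fresh VmSC4, and 0.831 and 1.05% in VmSC5-derived VmSC5, against 0.0722 to 0.167% in fresh VmSC5. In each population 3 of 4 stromal markers rose and 1, Dcn, fell, with sums of 53335 to 56106 CPM in VmSC4-derived VmSC4, against 28518 to 37631 CPM in fresh VmSC4, and 34079 and 35097 CPM in VmSC5-derived VmSC5, against 28270.0 to 31818 CPM in fresh VmSC5. Of 4 adipocyte markers tested, 2 fell in each population, Fabp4 by 2.30 and 1.61 and Lpl by 0.31 and 0.52 in VmSC4 and VmSC5 in that order, and the regulator Pparg fell by 1.57 and 0.97. In VmSC5-derived VmSC5, 2 of 3 tested endothelial markers rose, with a sum of 15.3 and 6.46 CPM, against 2.35 to 3.30 CPM in fresh VmSC5, and 2 of 3 tested macrophage markers rose, with a sum of 12.7 and 11.8 CPM, against 3.81 to 5.42 CPM in fresh VmSC5. In VmSC4-derived VmSC4, 1 of 3 tested endothelial markers rose and 1 of 3 tested macrophage markers fell. The part of these shifts in the members' changes was not tested.

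Cpt1a, Ehhadh and Acot2 rose after transfer in both. Ehhadh was at 11.6, 4.58 and 10.51 CPM in VmSC4-derived VmSC4, against 4.47, 3.75 and 2.14 CPM in fresh VmSC4, and at 14.3 and 16.9 CPM in VmSC5-derived VmSC5, against 2.68, 4.04 and 3.05 CPM in fresh VmSC5 (1.45 ± 0.35 and 2.20 ± 0.37). Cpt1a was at 224, 199 and 195 CPM in VmSC4-derived VmSC4, against 152, 117 and 133 CPM in fresh VmSC4, and at 183 and 197 CPM in VmSC5-derived VmSC5, against 154, 139 and 138 CPM in fresh VmSC5 (0.64 ± 0.12 and 0.35 ± 0.13). Transferred libraries lay above fresh ones in each case, but the Cpt1a call in VmSC5-derived VmSC5 was lost without either transferred library and without fresh VmSC5 replicate 2 or 3. Crot and Abcd3, low in fresh VmSC5, rose by 1.13 and 0.67 in VmSC5-derived VmSC5, and Acot1, high in fresh VmSC4, fell by 2.38 in VmSC4-derived VmSC4. These genes were named for their fresh levels, and the same fresh libraries enter both comparisons. Such a choice favours a move back, so these changes are not a separate result. Among the transferred cells, only Slc25a20 was called, between VmSC4-derived VmSC5 and VmSC4-derived VmSC4: 58.1, 60.9 and 66.0 CPM in VmSC4-derived VmSC5, against 45.1, 36.6 and 38.3 CPM in VmSC4-derived VmSC4 (0.70 ± 0.16, edgeR adjusted p = 0.02), 1 of 35 members beside 1.77% of all 13947 genes tested (0.746% higher and 1.03% lower). This call was lost without replicate 2 or 3 of either group. Of 35 members 0 were called by edgeR and by DESeq2 between VmSC4-derived VmSC5 and VmSC5-derived VmSC5 (3 at unadjusted p under 0.05), beside 1.15% of all 13947 genes tested (0.523% higher and 0.624% lower), and between VmSC5-derived VmSC5 and VmSC4-derived VmSC4 (5 at unadjusted p under 0.05), beside 3.41% of all 13947 genes tested (1.96% higher and 1.44% lower).

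OSM was added to VmSC5 in adipogenic medium to test a candidate mediator of Treg action on differentiation. With OSM 26 of 34 tested members fell and 2 rose, beside 45.8% of all 9825 genes tested (22.8% higher and 23% lower), with a median of -1.23, against 0.00 over all genes. Of 19 mitochondrial members tested 17 fell (median -1.30), and of 13 peroxisomal members 8 fell (median -0.82). The hydroxyacyl-CoA dehydrogenase Hadh was at 82.6, 59.7 and 60.4 CPM in OSM cultures, against 391, 371 and 395 CPM in PBS cultures. The peroxisomal bifunctional enzyme Hsd17b4 was at 81.8, 94.2 and 99.9 CPM in OSM cultures, against 355, 338 and 356 CPM in PBS cultures. The ETF subunit Etfb was at 66.6, 49.4 and 63.7 CPM in OSM cultures, against 271, 254 and 225 CPM in PBS cultures. In these 3 genes every OSM library was far below the lowest PBS library, with log2 fold changes of -2.41 ± 0.11, -1.81 ± 0.11 and -1.95 ± 0.13 (edgeR adjusted p = 1.5e-23, 3.82e-20 and 1.7e-18). Acadm was at 61.0, 57.8 and 67.7 CPM in OSM cultures, against 239.5, 207 and 212 CPM in PBS cultures. Acadvl was at 96.3, 109 and 126 CPM in OSM cultures, against 363, 323 and 308 CPM in PBS cultures. Cpt2 was at 69.0, 77.4 and 86.7 CPM in OSM cultures, against 251, 238 and 246 CPM in PBS cultures. Again the groups did not overlap, and the folds were -1.70 ± 0.12, -1.47 ± 0.11 and -1.54 ± 0.12. Hadha was at 114, 144 and 153 CPM in OSM cultures, against 328, 340.1 and 322 CPM in PBS cultures, and Abcd2 at 12.8, 20.5 and 11.8 CPM in OSM cultures, against 74.2, 63.5 and 70.8 CPM in PBS cultures, both without overlap.

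The other called mitochondrial members fell by 0.82 (Decr1) to 1.70 (Eci1) on the log2 scale, apart from Acaa2 and Acot2 below, and Scp2, Abcd3 and Ech1 fell by 1.01, 0.82 and 1.25. Among the thioesterases the differences were larger. Acot2, the mitochondrial form, was at 5.62, 8.39 and 15.1 CPM in OSM cultures, against 85.0, 90.4 and 82.7 CPM in PBS cultures (-2.98 ± 0.23). Acot4 was at 0.802, 0.933 and 3.29 CPM in OSM cultures, against 41.7, 38.5 and 41.8 CPM in PBS cultures (-4.31 ± 0.39). Acot3 had 0 counts in all OSM libraries and 16.997, 18.3 and 17.1 CPM in PBS cultures, 80 counts in all, which makes it at least 22.5-fold lower with OSM at a floor of 3 counts over the group. Acot3 and Acot4 passed the filter for low counts only through the PBS libraries, so only a fall could be called for them. Acot13 and Acot8 were not called. Cpt1a moved opposite to the other enzymes of its route, at 119.6, 109 and 92.0 CPM in OSM cultures, against 45.6, 52.0 and 59.7 CPM in PBS cultures. All OSM libraries lay above all PBS libraries, and Cpt1a rose by 1.13 ± 0.15 (edgeR adjusted p = 1.04e-08). Cpt1b, not tested, was at 0, 0 and 0 CPM in OSM cultures, against 0, 0.962 and 2.56 CPM in PBS cultures. Acox3 was the other member called higher, at 36.1, 29.8 and 45.3 CPM in OSM cultures, against 29.4, 22.1 and 31.5 CPM in PBS cultures (0.58 ± 0.22, edgeR adjusted p = 0.028). Its groups overlapped, and the call was lost with DESeq2, with library totals alone (0.48, adjusted p = 0.0723), without PBS replicate 2 and without OSM replicate 3. Acaa1b was at 5.62, 10.3 and 13.8 CPM in OSM cultures, against 51.8, 39.5 and 41.8 CPM in PBS cultures, while Acaa1a fell by only 0.35, a call lost with DESeq2, without PBS replicate 2 and without OSM replicate 1 or 2. Acaa2, the highest mitochondrial member per kilobase in fresh and 8-day cells, had the smallest fall among the mitochondrial members called lower (-0.60 ± 0.10). Not called were also Decr2, Pecr, Crot and Eci2, and Ehhadh, Hacl1 and Acot1 were not tested for low counts, with Ehhadh at 4.81, 1.87 and 6.57 CPM in OSM cultures, against 10.0, 2.89 and 6.82 CPM in PBS cultures.

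Adipocyte and stromal markers moved with OSM. All 6 adipocyte markers tested fell, with a sum of 1334 to 1846 CPM in OSM cultures, against 16812 to 19229 CPM in PBS cultures, and 3 of 4 stromal markers rose, with a sum of 9927 to 11415 CPM, against 3765 to 3814 CPM. Mitochondrially encoded genes took 1.53 to 1.64% of counts with OSM, against 2.40 to 2.92% with PBS. Endothelial markers rose in 4 of 4 tested, with a sum of 126 to 169.5 CPM in OSM cultures, against 25.6 to 34.0 CPM in PBS cultures. Of 3 pericyte markers tested 2 rose, and of 4 mesothelial markers tested 3 fell and 1 rose. Their part in the module's fall was not tested. Of 10 regulators tested 7 fell and none rose, including Pparg by 2.87, Ppargc1b by 4.88 and Ppargc1a by 3.25. Of 22 tested activation and related enzymes 10 fell and 3 rose, with the carnitine acetyltransferase Crat at -2.13, Cat at -1.46 and the synthetase Acsl4 at 2.61. Of 15 peroxins 8 fell and none rose, with Pex16 at -3.13, and of 4 ketone body enzymes 2 fell, Acat1 (-0.78) and Oxct1 (-0.69).

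With Treg, 31 of 38 members fell and 1 rose, beside 43.4% of all 12356 genes tested (22.4% higher and 21% lower). Folds were smaller, with a median of -0.53, against 0.00 over all genes. All 20 mitochondrial members were called, 19 of them lower (median -0.62), and 11 of 15 peroxisomal members were lower (median -0.45). Hadh had the smallest adjusted p here too, at 374, 374 and 403 CPM in cultures with Treg, against 858, 857 and 785 CPM in cultures without (-1.11 ± 0.06, edgeR adjusted p = 3.02e-18). Acaa1b was at 29.5, 26.0 and 31.9 CPM in cultures with Treg, against 76.9, 78.7 and 79.8 CPM in cultures without (-1.42 ± 0.09). Ehhadh was at 43.9, 39.3 and 47.6 CPM in cultures with Treg, against 90.7, 102 and 94.6 CPM in cultures without (-1.12 ± 0.08). In all 3 every library with Treg was below every library without. Acadm was at 599.6, 581 and 640.2 CPM in cultures with Treg, against 1127, 1159 and 1025 CPM in cultures without. Acadvl was at 433, 449 and 457 CPM in cultures with Treg, against 801, 820.0 and 765 CPM in cultures without. Acads was at 113, 120.1 and 119 CPM in cultures with Treg, against 212, 202 and 200.3 CPM in cultures without. The dehydrogenases fell by 0.85, 0.82 and 0.79 with no overlap. Etfdh, which passes the electrons to ubiquinone, was at 317, 323 and 333 CPM in cultures with Treg, against 588, 608 and 549 CPM in cultures without. Cpt2 was at 323, 330.4 and 337 CPM in cultures with Treg, against 567, 555 and 539 CPM in cultures without. Abcd2 was at 147, 145 and 148 CPM in cultures with Treg, against 249.8, 256 and 258 CPM in cultures without. They fell by 0.83, 0.74 and 0.79, also without overlap. Hsd17b4 was at 425, 444 and 463 CPM in cultures with Treg, against 719, 704 and 679 CPM in cultures without (-0.65 ± 0.06). Hadha was at 559.6, 563 and 615 CPM in cultures with Treg, against 889, 856 and 833 CPM in cultures without (-0.56 ± 0.06). The remaining mitochondrial members that fell did so by 0.17 (Decr1) to 0.77 (Cpt1b), and the remaining peroxisomal ones by 0.20 (Acaa1a) to 0.51 (Abcd3). DESeq2 called 28 lower and 1 higher, without Acot8, Decr1 and Pecr.

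The CPT1 isoforms moved in opposite directions with Treg. Cpt1a was at 67.9, 73.8 and 69.5 CPM in cultures with Treg, against 41.7, 52.0 and 51.0 CPM in cultures without, and rose by 0.56 ± 0.09 (edgeR adjusted p = 2.46e-06). Cpt1b was at 5.798, 7.92 and 7.52 CPM in cultures with Treg, against 11.1, 13.0 and 12.3 CPM in cultures without, and fell by 0.77 (edgeR adjusted p = 0.00107). Neither isoform overlapped between the groups, and Cpt1b ran below Cpt1a in every library, per kilobase of exon union at 0.193 to 0.245 times with Treg, against 0.545 to 0.604 times without, and per kilobase of the longest transcript at 0.127 to 0.161 times with Treg, against 0.359 to 0.398 times without. The order per kilobase is uncertain, because reads may have been lost where Cpt1b overlaps Gm44502. Not called were Acot3, Acot4, Acot1, Crot, Hacl1 and Eci2. Acot4 was at 32.5, 29.1 and 15.5 CPM in cultures with Treg, against 31.6, 24.2 and 33.3 CPM in cultures without, with 1 low library, replicate 3 with Treg, and Acot3 was also lowest there. Of 7 adipocyte markers 6 fell, with a sum of 18084 to 20561 CPM with Treg, against 29004 to 31070.4 CPM without, and mitochondrially encoded genes took 1.78 to 2.03% of counts with Treg, against 4.13 to 4.42% without. Of 4 stromal markers 3 rose and 1 fell, with a sum of 3447 to 4007 CPM with Treg, against 2034 to 2273 CPM without, and 4 of 5 mesothelial markers rose, with a sum of 34.0 to 56.1 CPM with Treg, against 17.9 to 21.7 CPM without. Of 6 macrophage markers 2 rose and 1 fell (Lyz2, by 2.64), with a sum of 129.6 to 149 CPM with Treg, against 234 to 272 CPM without. The part of these shifts in the module's fall was not tested. Markers of Treg cells summed to 3.06 to 4.16 CPM with Treg, against 3.13 to 4.09 CPM without, with Foxp3 at 0, 0 and 0 CPM with Treg, against 0, 0.153 and 0 CPM without. Of 13 regulators 7 fell and 1 rose, with Acacb at -1.13, Ppargc1b at -0.96 and the mitochondrial deacylase Sirt3 at -1.06. Of 23 activation and related enzymes 12 fell and 5 rose, with the acyl-CoA dehydrogenase Acad11 at -0.98 and the synthetase Acsl5 at 1.22. Of 16 peroxins 9 fell and none rose, with Pex6 at -0.83, and 3 of 5 ketone body enzymes fell.

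**Figure D4:**
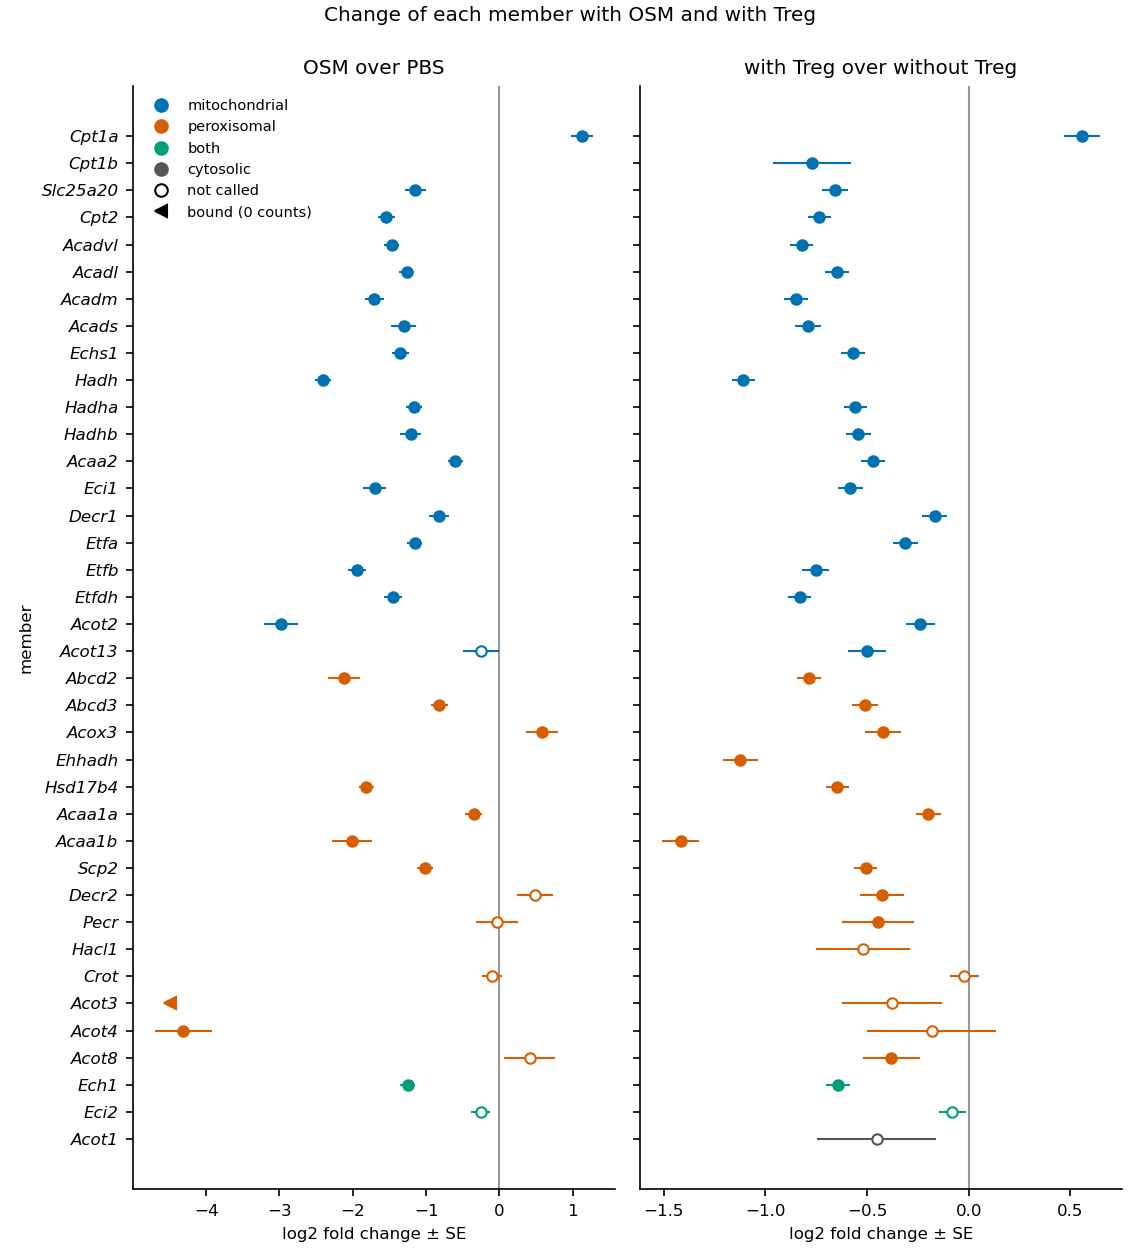
Log2 fold change ± SE of each tested member (1 line each) with OSM against PBS (left) and with Treg against without (right), coloured by compartment, with filled points for members called at an adjusted p under 0.05 and a triangle for the bound of Acot3, which had 0 counts with OSM. Most members lie left of 0 in both panels and Cpt1a right of 0 in both; the horizontal scales differ between panels, and 4 members not tested with OSM have no point there.

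The OSM and Treg comparisons share no library, and 24 members were lower in both, which is 24 of the 26 lower with OSM and of the 31 lower with Treg. How many of all genes were lower in both was not counted, so this overlap has no background beside it. Acot3 and Acot4 were called lower with OSM and not called with Treg. Acot13, Acot8, Decr2 and Pecr were called lower with Treg and not called with OSM, Acox3 was called lower with Treg and higher with OSM, and Cpt1b and Ehhadh, lower with Treg, were not tested with OSM. The difference of the 2 responses, OSM minus Treg, was tested for all 38 members in 1 fit of the 4 groups and was called for 25, 22 with a lower and 3 with a higher value with OSM, beside 32.5% of all 12112 genes tested (15% higher and 17.5% lower). Of 20 mitochondrial members 16 were lower with OSM and 1, Cpt1a, was higher (0.61 ± 0.17, edgeR adjusted p = 0.00502), and of 15 peroxisomal members 5 were lower and 2 were higher. Those 2 were Acox3 (1.06 ± 0.22) and the dienoyl-CoA reductase Decr2 (0.95 ± 0.25), which fell with Treg and stood at 32.1, 29.8 and 27.6 CPM in OSM cultures, against 14.7, 23.6 and 30.7 CPM in PBS cultures. Among the lower ones Acot2 differed by -2.71 ± 0.22, Hadh by -1.26 ± 0.13, Etfb by -1.15 ± 0.14, Hsd17b4 by -1.13 ± 0.11 and Abcd2 by -1.30 ± 0.20. Acaa1b was not called in this contrast (-0.55 ± 0.28, edgeR adjusted p = 0.133), and fell in both comparisons. The cultures differed in depth, and their untreated levels differed too: Hadh was at 391, 371 and 395 CPM with PBS and 858, 857 and 785 CPM without Treg. The part of depth or of that starting level was not tested.

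In the floating cells, which are the fraction of VAT labelled adipocyte, Treg depletion was set against the DTR- controls. Of 37 members tested 2 rose and 0 fell, beside 2.43% of all 11803 genes tested (0.491% higher and 1.94% lower), with 11 at an unadjusted p under 0.05 and a member median of 0.95, against -0.04 over all genes. DESeq2 called 2 higher and 1 lower. Acot3 was at 10.1 and 5.32 CPM in DTR+ mice, against 0.337 and 0.134 CPM in DTR- mice, which is 115 counts in all against 3, a CPM ratio of 34.6 (exact 95% counting interval 11.6 to 170.4; edgeR 5.33 ± 1.01, adjusted p = 0.00843). Acot1 was at 8.54 and 4.63 CPM in DTR+ mice, against 0.337 and 0 CPM in DTR- mice, 98 counts against 2, a ratio of 44.3 (11.9 to 371; edgeR 5.61 ± 1.15, adjusted p = 0.0117). Both DTR+ libraries were above both DTR- libraries for these 2 genes. They passed the filter for low counts only through the DTR+ libraries, so only a rise could be called for them. Neither relative was called: Acot4 was at 42.9 and 11.99 CPM in DTR+ mice, against 26.6 and 11.1 CPM in DTR- mice, and Acot2 at 80.4 and 44.6 CPM in DTR+ mice, against 35.4 and 28.6 CPM in DTR- mice. Acot4 overlapped between the groups, while Acot2 was higher in both DTR+ libraries. Acot2, Acot1, Acot4 and Acot3 lie within 72.5 kb of chromosome 12 (83987861 to 84060402 in GRCm38).

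Cpt1a was at 12.8 and 7.77 CPM in DTR+ mice, against 60.9 and 69.8 CPM in DTR- mice. Both DTR+ libraries lay far below both DTR- libraries, but the gene was not called by edgeR (-2.28 ± 0.63, adjusted p = 0.0583) and was called lower by DESeq2. Hadha was at 388 and 178 CPM in DTR+ mice, against 363 and 294 CPM in DTR- mice, Acadm at 701 and 655 CPM in DTR+ mice, against 678 and 627 CPM in DTR- mice, and Etfb at 184 and 458 CPM in DTR+ mice, against 175 and 128 CPM in DTR- mice. Hadha and Acadm overlapped between the groups, and Etfb was higher in both DTR+ libraries without passing the test. Over the tested members, mitochondrial ones other than Cpt1a had log2 fold changes of 0.10 (Cpt2) to 1.80 (Acot13), with a median of 1.17, and the peroxisomal median was 0.79. Peroxisomal members diverged within the DTR+ pair: Abcd2 was at 792 and 189 CPM in DTR+ mice, against 596 and 1022 CPM in DTR- mice, Crot at 82.5 and 11.0 CPM in DTR+ mice, against 52.6 and 69.2 CPM in DTR- mice, and Ehhadh at 25.8 and 3.95 CPM in DTR+ mice, against 26.1 and 32.3 CPM in DTR- mice, each lowest in DTR+ replicate 3. Leaving out any of the 4 floating-cell libraries moved the number of members called. Each such fit left 1 library alone in its group, assumed to vary like the other group, and those numbers are not given here. The calls of Acot3 and Acot1 were lost without either DTR- library. With library totals as the only scaling 0 members were called, and the median of all genes moved to -0.40. All 5 endothelial markers fell with depletion, with a sum of 25.5 and 4.63 CPM in DTR+ mice, against 294 and 407 CPM in DTR- mice, adipocyte markers summed to 41572 and 51243 CPM, against 40696 and 40947 CPM, and macrophage markers to 122 and 81.0 CPM, against 293 and 365 CPM. Of 4 pericyte markers 2 fell, and of 5 mesothelial markers 2 fell. Among stromal markers Col1a1 fell (edgeR adjusted p = 0.00479), and Dcn and Lum were not called. None of the adipocyte markers was called, but their sum hides opposite moves. Lep was at 233 ± 173 CPM in DTR+ mice, against 1594 ± 210 CPM in DTR- mice (SD). Retn was at 6695 ± 4336 CPM in DTR+ mice, against 1787 ± 186 CPM in DTR- mice. Their part in these values was not tested. None of the regulators, activation enzymes, peroxins or ketone body enzymes tested was called by edgeR.

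**Figure D5:**
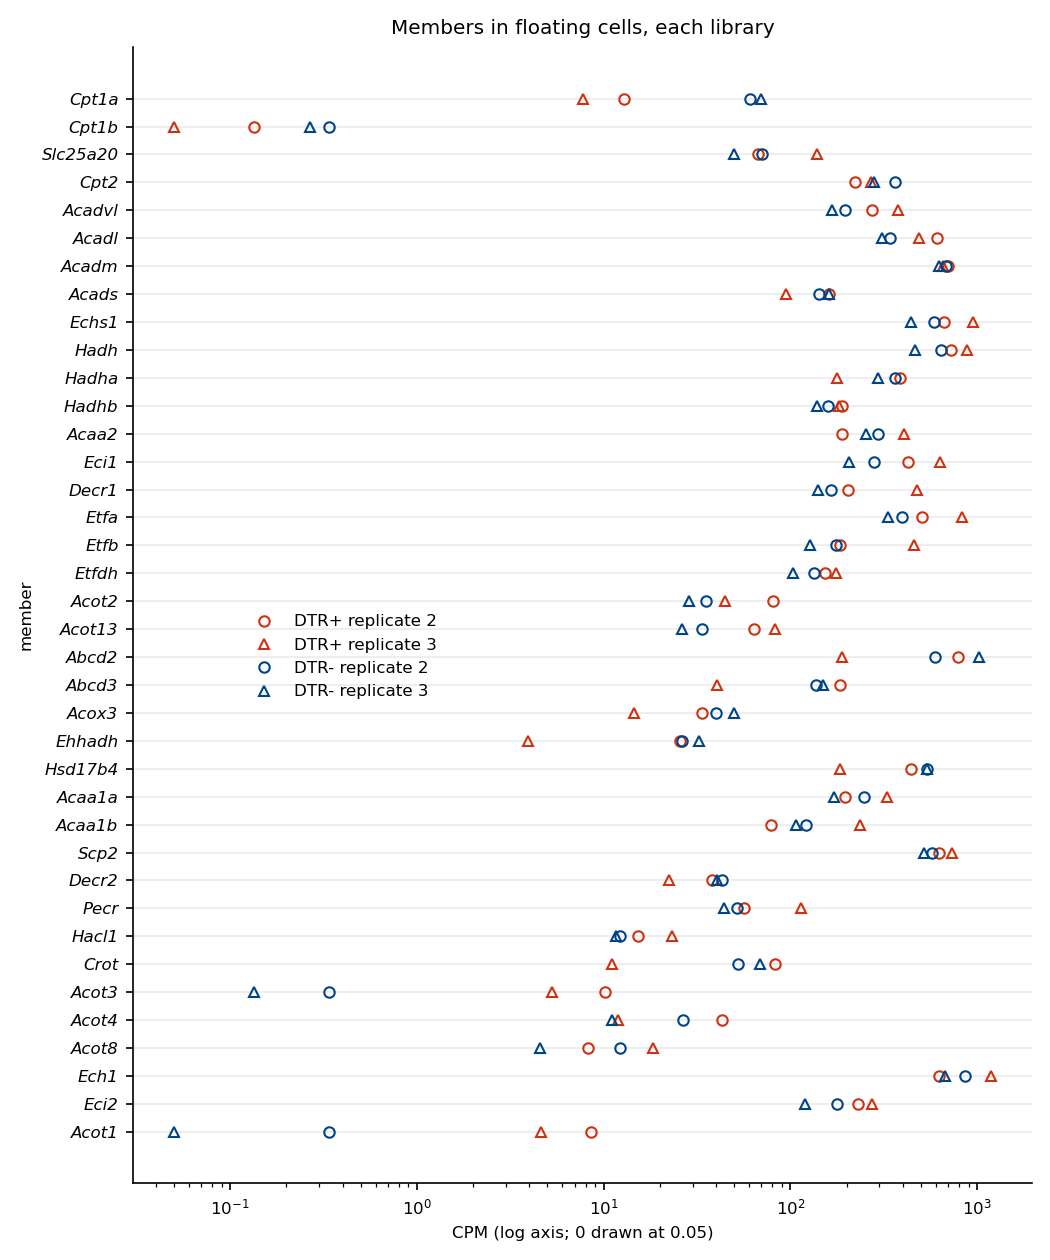
CPM of each member in the 4 floating-cell libraries (1 line per member, log horizontal axis with 0 drawn at 0.05 CPM; red for DTR+, blue for DTR-, circles for replicate 2 and triangles for replicate 3). Acot3 and Acot1 lie to the right in both DTR+ libraries and Cpt1a to the left, while Abcd2, Crot and Ehhadh are lowest in DTR+ replicate 3.

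The Treg cells addressed whether loss of Osm alters the same enzymes in the cells that make the cytokine. The targeted gene Osm was at 9.83, 14.6 and 7.76 CPM in KO cells, against 29.1, 28.4 and 34.1 CPM in WT cells, lower in every KO library but not called (-1.51 ± 0.35, edgeR adjusted p = 0.271). The KO libraries were uneven, with Foxp3 at 154, 359 and 316 CPM and macrophage markers at 51.5, 9.29 and 4.78 CPM. KO replicate 2 had 1507163 total counts and 16756 genes detected. Of 32 members tested 0 were called by edgeR and by DESeq2, with 1 at an unadjusted p under 0.05, beside 0.0526% of all 11416 genes tested (0.00876% higher and 0.0438% lower), and the member median was 0.02, against 0.01 over all genes. That member was Acads, at 79.8, 86.3 and 86.6 CPM in KO cells, against 54.1, 66.1 and 58.2 CPM in WT cells (0.54 ± 0.20, edgeR adjusted p = 0.39), with every KO library above every WT library. Cpt1a was at 86.0, 126 and 136 CPM in KO cells, against 113, 147 and 150.2 CPM in WT cells, Acadm at 69.0, 80.3 and 51.7 CPM in KO cells, against 56.8, 67.9 and 50.7 CPM in WT cells, and Hadha at 199.7, 198 and 239 CPM in KO cells, against 209, 229.6 and 192 CPM in WT cells. All 3 overlapped between the genotypes. The folds of the tested members lay between -0.49 and 0.54 on the log2 scale. Since even Osm was not called, the lack of calls does not show that the members were unchanged. Cpt1b, Abcd2, Acaa1b, Acot3, Acot4 and Acot1 were under 1 CPM on average in both genotypes and were not tested.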

How the data were processed

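Gene counts for 42 libraries were used as deposited: per the submitters' processing notes the authors used STAR (version 2.7.3a), featureCounts and the mm10 build, and the table holds whole-number counts per gene with no normalization. The annotation, the strand setting and the treatment of reads that match several places or genes are not given in the sources used here. Per the labels' protocols, libraries were made from about 1000 sorted cells, from lysed culture wells or from RNA of floating cells with a low-input protocol, so experiments differ in preparation. Groups and replicate numbers came from the sample titles.

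Tests were run in R (version 4.3.3) with edgeR (version 4.0.16; TMM scaling, filterByExpr with a minimum count of 10, robust quasi-likelihood F test) on limma (version 3.58.1), with Benjamini-Hochberg adjustment over all genes of a comparison and a threshold of 0.05. The 8-day cultures and fresh cells were fitted together, as were the transferred and fresh cells; the OSM, Treg, floating and Treg cell comparisons were fitted on their own groups, and the OSM and Treg groups together for their difference. The scripts were tested on simulated data. Alternatives were RLE scaling, DESeq2 (version 1.42.0), no filter, only the compared groups, a replicate block, leaving out each library, longest-transcript lengths and compartment sums with other members or totals; library totals as the only scaling and a crossed block were chosen after seeing the data. CPM used the library total, and exon lengths were exon unions of the GRCm38 annotation supplied for this work. All 38 members could be named; values per library were given for those with the smallest adjusted p, up to 10 in the 3 comparisons with most calls and up to 6 in others, and for Cpt1a, Cpt1b, Acadm, Hadha, Ehhadh, Abcd2 and Acot1, and up to 4 genes per partner list. Some genes of those lists are not reported here. Other members were named for contrast after their values were seen. The members and lists were chosen with earlier results of these data known.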

Additional observations from a re-analysis of the deposited data

Results flagged for a closer look

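Each of these values was singled out because a test of the difference between 2 responses was called by edgeR. Of the culture response, VmSC5 minus VmSC4, it was called for Acot4 (2.06), Hadhb (0.70) and Acads (-0.69) on the log2 scale. The value of Acot4 rests on 2, 3 and 2 counts in fresh VmSC5. Of the OSM response minus the Treg response, it was called for 17 mitochondrial members, of which Cpt1a was higher by 0.61. The 16 lower ones were, on the log2 scale, Slc25a20 at -0.45, Cpt2 at -0.77, Acadvl at -0.61, Acadl at -0.58, Acadm at -0.81, Acads at -0.47, Echs1 at -0.75, Hadh at -1.26, Hadha at -0.57, Hadhb at -0.63, Eci1 at -1.08, Decr1 at -0.62, Etfa at -0.80, Etfb at -1.15, Etfdh at -0.58 and Acot2 at -2.71. Acot2 and Hadh lay farthest from 0 among them, and Slc25a20 nearest. Its call and that of Acads were each lost without some single library: Slc25a20 without culture replicate 3 without Treg or OSM replicate 2 or 3, and Acads without OSM replicate 1.

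Of the peroxisomal members, Acox3 differed by 1.06 and Decr2 by 0.95, both higher with OSM. Lower with OSM were Abcd2 at -1.30, Hsd17b4 at -1.13, Scp2 at -0.47 and Acot4 at -4.12. Acot3 had a fitted value of -8.38, which depends on the prior count because all OSM libraries had 0 counts and is no bound. Ech1, found in both organelles, differed by -0.57. The 2 experiments differed in depth and in the level of the untreated cultures, and the part of either in these differences was not tested.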

How the results depend on the processing

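Of 2600 fold changes recomputed for 212 member results, 2447 kept their direction and side of the threshold, 141 lost a call, 11 gained one and 1 changed sign: Acot1 in VmSC4 cultures against fresh VmSC4, not called, was at -0.27 with library totals alone. Between cultured VmSC5 and VmSC4 the count of 0 became 2 with no filter (Acaa2 and Acot3), 1 with DESeq2 and 2 with only the compared groups; the cause was not tested. In floating cells the count of 2 became 0 with library totals alone and 4 with a crossed block, which adds Acot13 and Cpt1a; same-numbered floating libraries deviated in opposite directions (r = -0.38). Leaving out each library gave 0 to 1 calls for VmSC4-derived VmSC5 against VmSC4-derived VmSC4, 9 to 16 for VmSC5-derived VmSC5 against fresh VmSC5, 0 to 1 for cultured VmSC5 against VmSC4, 0 to 3 for the difference of culture responses and 0 to 29 for floating cells. In the other comparisons these fits stayed within 1.5 times the count, at 36 in VmSC4 cultures, 37 to 38 in VmSC5 cultures, 29 to 32 with Treg and 26 to 30 with OSM. Outside the floating cells, deviations of same-numbered libraries correlated at -0.145 to 0.112, against -0.154 to 0.155 for differently numbered ones. Same-numbered values were the higher ones between cultured VmSC5 and VmSC4 (0.0363 to 0.0961, against -0.0924 to 0.0119). They were the lower ones with Treg against without (-0.0817 to -0.0243, against -0.0241 to 0.0796). Deviations from means of so few libraries are tied to each other, so these values cannot exclude pairing. With a replicate block the counts were 36 and 38 in the cultures, 2 for their difference, 30 with Treg, 28 with OSM, 25 for the difference of those responses, 17 and 15 after transfer, 6 between fresh populations, 2 in floating cells and 0 in Treg cells. Setting Acot3 at its bound left the member medians at 3.37 in VmSC5 cultures and -1.23 with OSM. Of 45 compartment sums and proportions, 39 moved by more than the spread between libraries without the most abundant member of each compartment, 30 with Ech1 and Eci2 counted as peroxisomal and 8 without mitochondrially encoded genes in the total. Of 266 levels per kilobase, 74 stayed within that spread with longest-transcript lengths; Acaa2 and Acaa1b in culture and Acaa2 and Acaa1a in fresh cells still led their compartments. Depth limits the lowest members: Cpt1b, Acot1, Acot3 and Acot4 rest on few counts in several groups.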
